A study of Mus musculus with 5 samples.

Results

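A pair of hashtagged populations of neutrophils from mice bearing AT3-gcsf tumours were compared: 3505 cells with tag MHTO4 and 2853 cells with tag MHTO3. AT3 is a mouse mammary carcinoma line, and AT3-gcsf is, by its name, a form of it tied to granulocyte colony-stimulating factor (G-CSF). A cell was given the named tag that held at least 80% and at least 20 of its named-tag counts. It was kept with at least 200 genes detected, under 10% mitochondrial transcripts and at least 2% of its transcripts from S100a8 and S100a9, the main cytosolic proteins of neutrophils. The same rule kept 24456 cells of the 26406 cell barcodes in the study's 3 libraries, and 6358 of those are described here. The other libraries came from naive mice and from mice with AT3 tumours. All mice were female wild-type C57BL/6J animals, and neutrophils from BM, PB and lung were hashed and pooled into 1 droplet lane per condition, with about 8000 cells of each tagged sample among about 24000. The sources used here do not give ages, the number of mice behind a tag, the sorting gate or the tissue behind a tag number. Tissue, animal and tag number cannot be told apart, so the populations are called by their tags. Each tag was 1 population of 1 library, so no test between them was possible and none was run.

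Neutrophils arise in the marrow from promyelocytes, which make the proteases of primary granules. Later stages switch those genes off and fill secondary granules and then gelatinase granules, and the mature cell leaves for the blood with motility and chemoattractant-receptor genes on. G-CSF drives this lineage and the release of its cells. Immediate-early genes such as Fos are transcribed within minutes of a stimulus, before new protein is made.

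The tags themselves are short oligonucleotides on antibodies, and they decide which cell belongs to which population. They are printed in capitals throughout, as deposited, because the comparison rests on telling them apart.
MHTO3: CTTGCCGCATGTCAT
MHTO4: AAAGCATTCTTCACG
These 15-base tags differed at 12 positions. The median MHTO4 cell held 549 counts of its tag, which were 99.0% of its named-tag counts. For the median MHTO3 cell the values were 404 counts and 98.4%. Few cells lay near the tag rule: 11 MHTO4 and 8 MHTO3 cells had a share between 80% and 85%, and 15 and 3 cells fell just short, between 75% and 80%.

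The MHTO4 cells held 31445284 transcript counts (unique molecular identifiers, UMIs) and the MHTO3 cells 21706581. Median depth was 7458 UMIs in MHTO4 and 6523 in MHTO3, with 1666 and 1535 genes detected per median cell. Median mitochondrial shares were 1.29% and 1.48%. The S100 minimum removed 71 MHTO4-tagged and 15 MHTO3-tagged cells, and 107 and 39 kept cells lay just above it, at 2% to 4%. Cells of the same tag caught in 1 droplet cannot be found by tags and were not removed, and no doublet caller was run. Any pair of libraries shared 20 to 44 barcode sequences. The 44, shared by the naive and AT3 libraries, were 0.561% of the AT3 barcodes.

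S100a8 and S100a9, whose share had chosen the cells, stood at 152654 and 144157 CPM (a gene's count summed over the cells of a tag, per 1000000 counts of that tag) in MHTO4 and at 141696 and 148036 in MHTO3. The other 9 neutrophil markers all reached 20 CPM in both. The surface marker Ly6g was at 651 CPM in MHTO4 and 698 in MHTO3, the G-CSF receptor Csf3r at 807 and 887 and the chemokine receptor Cxcr2 at 653 and 676. The granule protease Mmp8, at 1956 and 1379 CPM, had the widest gap of the 9, under 1.5-fold.

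Genes with at least 20 CPM in the higher population were compared, and a gene was called at a difference of at least 1.5-fold after 5 CPM were added to both values. Ratios written as log2 are MHTO4 over MHTO3 on that scale. Of 3425 genes compared, 58 were higher in MHTO4 (1.69%) and 102 were lower (2.98%), 4.67% in all. At 2-fold the counts were 9 higher (0.263%) and 35 lower (1.02%), 1.28% in all. The median log2 ratio was 0.01, with a central 90% from -0.45 to 0.41. Across the compared genes the levels correlated with a Pearson r of 0.978, a description over genes that share 2 pools of cells and 1 lane. The balance of higher to lower differed between settings. With TMM scaling, which equalises the bulk of the genes, 41 were higher and 131 lower, and with totals that left out the 20 most abundant genes 140 were higher and 126 lower. The latter setting raises every CPM, so that 4898 genes reached the 20 CPM minimum.

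**Figure D1:**
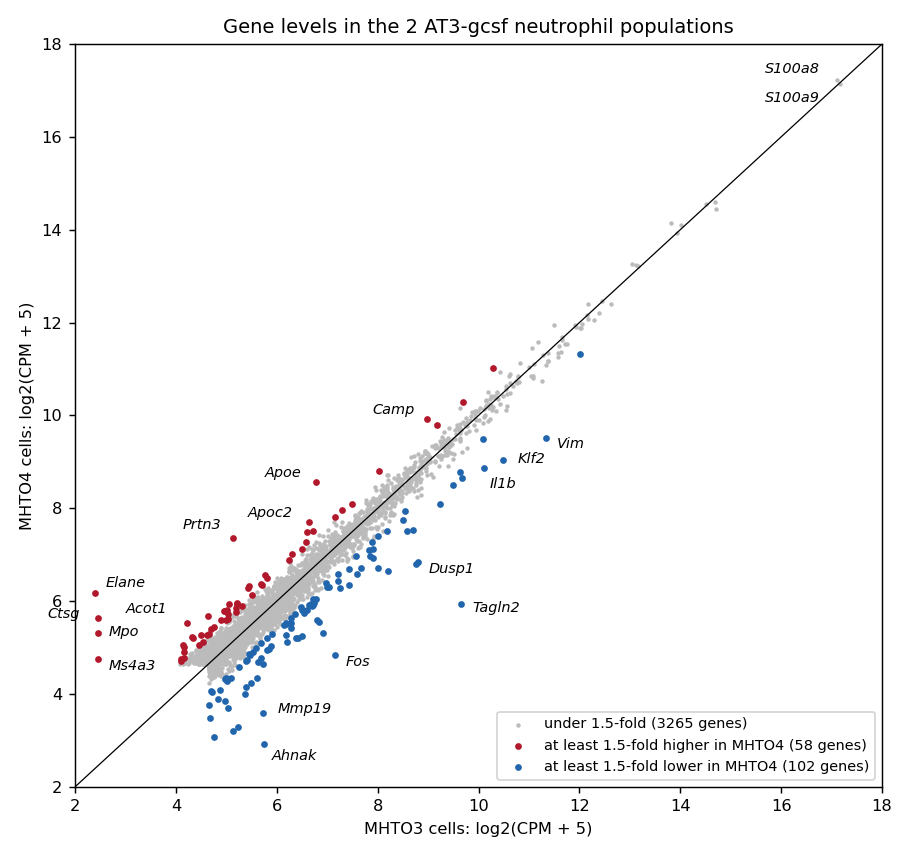
Level of each of the 3425 compared genes in MHTO3 cells (horizontal) and MHTO4 cells (vertical), both as log2(CPM + 5), with the diagonal of equal levels. The 58 higher and 102 lower genes are coloured, and Tagln2, Ahnak and Fos lie farthest below the diagonal.

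The genes with the lowest ratios are described first, one by one, since they form no list of their own. Tagln2, an actin-binding protein of the calponin family (chromosome 1, 172500047 to 172507380, mm10), was at 56.0 CPM (95% interval 53.4 to 58.6, counting error only) in MHTO4 and 800.1 CPM (788 to 812) in MHTO3. It was thus 14.3-fold lower in MHTO4 (13.6 to 15.02), the lowest log2 ratio of all compared genes at -3.72. Vim, the intermediate filament protein vimentin (chromosome 2, 13573927 to 13582826), was at 730 CPM and 2582 CPM, 3.54-fold lower (3.48 to 3.59). Ahnak, a giant scaffold protein under the plasma membrane (chromosome 19, 8989284 to 9076914), was at 2.58 CPM (2.05 to 3.20) and 48.7 CPM (45.9 to 51.8), 18.9-fold lower (15.1 to 24.0). Each of these intervals for MHTO4 lay far below that for MHTO3.

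Further genes among the lowest were picked here by their ratios, and most of those named next encode proteins of the membrane or beneath it. Others among the lowest, such as Fos and Dusp1, do not and are described below. Ezrin (Ezr), which ties actin to the membrane, was at 95.9 CPM against 291, and the membrane-binding annexin Anxa6 at 4.77 against 32.3. Adgre5, the adhesion receptor CD97, was at 106 CPM against 427, and the hyaluronan receptor Cd44 at 178 against 375. The small GTPase gene Rhob was at 34.9 CPM against 116, Arl13b, a small GTPase best known from cilia, at 3.47 against 22.02, and the tetraspanin Tspan2 at 7.98 against 27.8. The secreted metalloproteinase Mmp19 was at 6.996 CPM against 48.1. All of these were called lower, with log2 ratios from -2.15 for Mmp19 to -1.05 for Cd44. The abundant actin gene Actb had a log2 ratio of 0.05, and -0.02 under TMM scaling, and Actg1 one of -0.15.

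Tagln2 transcripts were spread over most cells of MHTO3. At least 1 Tagln2 UMI was found in 81.9% of MHTO3 cells and 20.03% of MHTO4 cells. After each cell was thinned to 2000 UMIs, which left out 51 MHTO3 and 63 MHTO4 cells, the shares were 63.8% (62.0 to 65.6) and 6.94% (6.12 to 7.84). No cell type known to lack Tagln2 was at hand for a background. The 126 tagged cells of the library under the S100 minimum, a mixed set with a median of 3754.5 UMIs, held a Tagln2 UMI in 44.4%. In MHTO4 the few positive cells were uneven, since the top 1% of cells (36 cells) held 38.2% of its Tagln2 counts, against 4.39% in the top 1% of MHTO3 cells.

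Thinned cells with 2 or more Tagln2 UMIs numbered 73 in MHTO4 (2.12%) and 1257 in MHTO3 (44.9%). In those 73 MHTO4 cells Vim was at 2233 CPM, against 594 CPM in the 3203 MHTO4 cells with no Tagln2 UMI. Adgre5 was at 493 against 133 CPM and Ahnak at 61.6 against 2.03 CPM, with both Ahnak values resting on few UMIs. So the same 73 cells were high for several of the genes that were low in MHTO4 as a whole. Fos was at 34.2 CPM in the 73 cells, a value that rests on few UMIs, and at 33.9 CPM in the cells without Tagln2. Every Tagln2 class of MHTO3 lay between 169 and 185 CPM for Fos. Dusp1 was at 178 and 127 CPM and Klf2 at 781 and 567 CPM in the same MHTO4 classes. The MHTO3 cells without Tagln2 had 498 CPM of Dusp1 and 1648 CPM of Klf2. In MHTO3 the cells without a Tagln2 UMI still had Vim at 1928 CPM and Adgre5 at 394 CPM, above the MHTO4 cells of the same class.

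**Figure D2:**
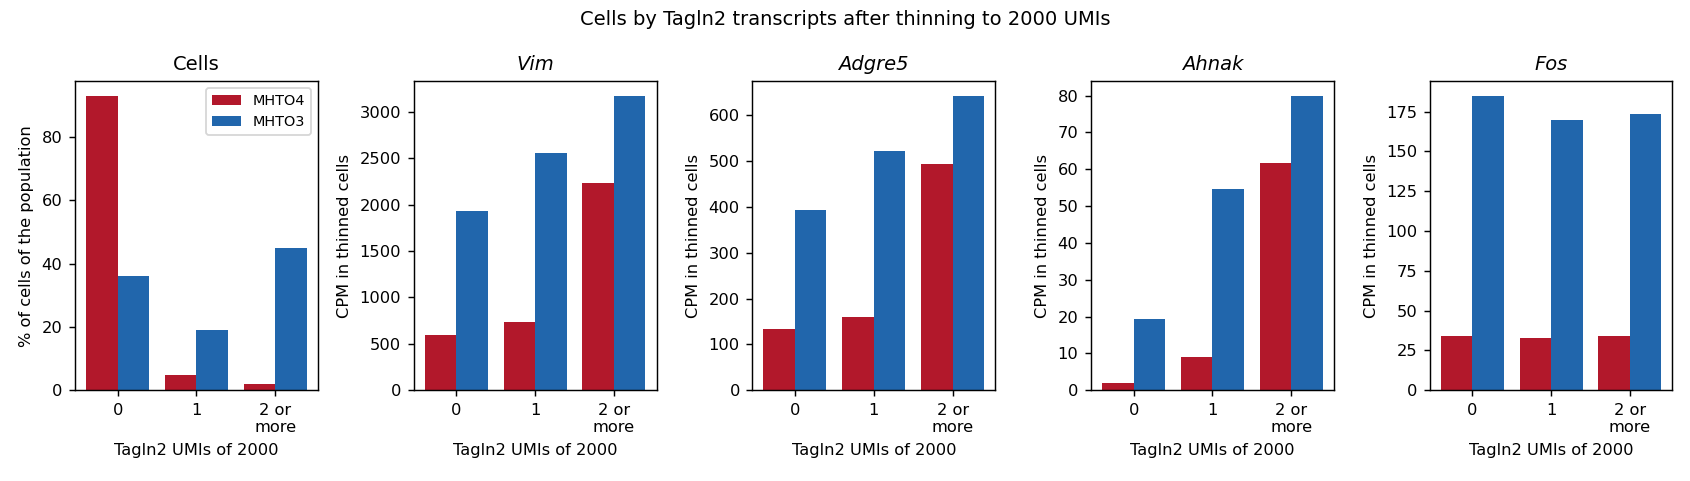
Left, percent of cells of each population with 0, 1, or 2 or more Tagln2 UMIs after thinning to 2000 UMIs per cell; right, level of Vim, Adgre5, Ahnak and Fos in each class (CPM of thinned cells, linear axes from 0, MHTO4 red and MHTO3 blue). MHTO4 has 93.1% of its cells at 0, and its cells with 2 or more have Vim, Adgre5 and Ahnak nearer to MHTO3. Its Fos values are alike across classes, on few UMIs in the class of 2 or more.

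Immediate-early genes were lower as a group. Of 14 measured members 9 were called lower and 0 higher, beside the 2.98% of all compared genes called lower, and the median log2 ratio was -0.61 against 0.01 for all genes. Fos, a subunit of the transcription factor AP-1 (chromosome 12, 85473890 to 85477273), was at 23.6 CPM (21.96 to 25.4) in MHTO4 and 136 CPM (132 to 141) in MHTO3, 5.78-fold lower (5.33 to 6.27). Dusp1, a phosphatase that switches off MAP kinases (chromosome 17, 26505590 to 26562128), was at 109 CPM against 440, 4.02-fold lower (3.87 to 4.18). Klf2, a transcription factor of circulating leukocytes (chromosome 8, 72319033 to 72321656), was at 524 CPM against 1430, 2.73-fold lower (2.68 to 2.78). In thinned cells a Fos UMI was present in 6.10% of MHTO4 and 24.9% of MHTO3 cells, a Dusp1 UMI in 20.9% and 55.6%, and a Klf2 UMI in 63.7% and 88.9%, so for each the share of cells moved with the sum. In the mixed set under the S100 minimum, unthinned, the shares were 38.1% for Fos, 56.3% for Dusp1 and 78.6% for Klf2.

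The AP-1 partner Junb was at 714 CPM against 1090 (log2 ratio -0.61). Jund was at 358 against 712 (-0.98) and the mRNA-destabilising protein Zfp36 at 90.8 against 187 (-1.01), both named after their values were seen. The stress-response member Ier3 was at 122 CPM against 148 (-0.27) and was not called. The predicted gene Gm34455, on the same strand of chromosome 17 as Dusp1 (26467560 to 26503200), was at 4.23 CPM against 30.1, 7.12-fold lower (5.90 to 8.65).

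The promoters of Fos and Dusp1 are shown because both genes lead this group. They are the 150 bases before the RefSeq start (GRCm38.p6), written 5′ to 3′ on the gene's strand. Capitals mark TGACG on either strand, the core of the sites known for CREB and ATF factors.
Fos (chromosome 12, 85473740 to 85473889, plus strand): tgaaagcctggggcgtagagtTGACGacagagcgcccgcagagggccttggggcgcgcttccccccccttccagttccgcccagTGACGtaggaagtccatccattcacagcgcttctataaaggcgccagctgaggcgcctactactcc
Dusp1 (chromosome 17, 26508473 to 26508622, minus strand): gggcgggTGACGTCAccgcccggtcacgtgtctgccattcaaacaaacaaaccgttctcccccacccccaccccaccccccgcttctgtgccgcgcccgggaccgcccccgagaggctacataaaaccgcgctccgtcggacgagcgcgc
TGACG occurred 2 times in each, and in Dusp1 both matches overlap in TGACGTCA, 1 per strand. Of 32851 promoters of this length 13.3% held TGACG. The promoters of Klf2 and Zfp36 had no match in this window.

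Interferon-stimulated genes, which block viral and microbial growth, were lower in MHTO4. Of 25 measured members 8 were called lower and 0 higher, beside 2.98% and 1.69% of all compared genes, 23 lay below 0 and the median log2 ratio was -0.50. The count of lower members was 12 of 26 under TMM scaling and 3 of 25 with 20 CPM added. Gbp2, a guanylate-binding protein, was at 31.6 CPM (29.7 to 33.6) against 81.0 CPM (77.2 to 84.9), 2.56-fold lower (2.37 to 2.77). Oasl2, of the oligoadenylate synthetase family, was at 117 CPM against 234, and Ifi27l2a at 73.1 against 148. The most abundant members differed little, with Ifitm1 at 0.03 and Ifitm2 at -0.22 on the log2 scale, and -0.04 for Ifitm1 under TMM scaling. Among MHC class I genes, which present peptides to T cells, 0 of 10 measured members were called and 9 lay below 0, with B2m at 473 CPM against 664. Of all 3425 compared genes 1609 lay below 0.

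Inflammatory and surface genes of mature cells followed. Il1b, the cytokine interleukin-1 beta (chromosome 2, 129364570 to 129371139), had 459 CPM (451 to 466) in MHTO4 and 1104 CPM (1091 to 1119) in MHTO3, 2.41-fold lower (2.36 to 2.46). Fgl2, a fibrinogen-like protein, was at 101 CPM against 253, and Cd14, the endotoxin co-receptor, at 179 against 410. The acute-phase protein gene Saa3 was at 2538 CPM against 4113, and its log2 ratio of -0.70 became -0.46 when every cell weighed the same. The list of genes of mature circulating neutrophils had 5 of 18 measured members called lower and 0 higher, beside the same 2.98% and 1.69%, with a median of -0.29. Chemoattractant and adhesion receptors had 4 of 20 called lower, again beside 2.98% of all compared genes: the integrin chains Itgal (81.2 CPM against 144) and Itga4 (41.4 against 72.2), Cd44, and Cxcr4, the receptor that holds neutrophils in marrow (29.3 against 46.6). Cxcr4 lay near the threshold at -0.59 and was at -0.50 with equal weight per cell. Sums of NF-kB feedback genes stood close together, with 1 of 12 called lower, beside the same 2.98%: Nfkbiz, at 15.01 CPM against 26.3.

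Some genes of lipid handling were higher in MHTO4. Of 15 measured members 4 were called higher and 0 lower, beside 1.69% of all compared genes called higher. Above 0 lay 10 of the 15, beside 53.0% of all compared genes, and the median log2 ratio was 0.32. Apoe, the lipid carrier apolipoprotein E (chromosome 7, 19696109 to 19699188), was at 373 CPM (366 to 380) in MHTO4 and 104 CPM (100.1 to 109) in MHTO3, 3.58-fold higher (3.42 to 3.74). Apoc2, the cofactor of lipoprotein lipase from the same gene cluster (19671579 to 19677941), was at 204 CPM (199 to 209) against 94.5 (90.4 to 98.7), 2.16-fold higher (2.05 to 2.27). Acot1, an acyl-CoA thioesterase of the cytosol (chromosome 12, 84009490 to 84018371) with close paralogs whose reads may be split, was at 40.9 CPM (38.7 to 43.2) against 13.6 (12.1 to 15.3), 3.00-fold higher (2.64 to 3.41). The fourth was the cholesterol exporter Abca1, at 33.6 CPM against 19.4 and named after its value was seen. The droplet protein Plin2 was at 418 CPM against 287 (0.53) and was not called.

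In thinned cells an Apoe UMI was found in 34.5% of MHTO4 cells (33.0 to 36.2) and 14.5% of MHTO3 cells (13.2 to 15.8), so Apoe differed in the share of cells as well as in the sum. The unthinned shares were 48.2% and 24.9%, and the mixed set under the S100 minimum had 36.5%. The top 1% of MHTO4 cells held 10.9% of their Apoe counts, and 20.7% in MHTO3. An Acot1 UMI was found in 11.2% of thinned MHTO4 and 3.57% of thinned MHTO3 cells, and an Apoc2 UMI in 29.0% and 12.99%. These transcripts went together within MHTO4: the 1189 thinned cells with an Apoe UMI had Apoc2 at 389 CPM and Acot1 at 106 CPM, and the 2253 cells without had 145 and 49.5 CPM. S100a8 went the other way, at 95542 CPM in MHTO4 cells with Apoe and 143680 in those without. Both patterns recurred in MHTO3, with Apoc2 at 188 against 68.0 CPM and S100a8 at 94150 against 126247 CPM. Acot1 was closer there, at 27.1 against 18.4 CPM.

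Siglecf, the sialic acid receptor Siglec-F, was at 37.2 CPM (35.1 to 39.4) against 21.0 (19.1 to 22.98). It was also higher in the Apoe-positive MHTO4 cells, at 95.04 CPM against 45.9. Camp was lower in them, at 19.8 CPM against 542. With every cell holding an Apoe UMI left out, 62 genes were called higher and 150 lower, 39 and 99 of them shared with the full comparison. Siglecf then fell from a log2 ratio of 0.70 to 0.31 and was not called. It also fell short with S100a8 and S100a9 at 10% or more (0.51) and with 20 CPM added (0.48). Apoe is also a macrophage gene. Of the 13 macrophage markers 6 were measured: Apoe, called higher, and Lgals3 (815 CPM in MHTO4, 789 in MHTO3), Cd63 (134, 109.9), Cd68 (90.2, 103), Csf1r (66.5, 62.9) and Adgre1 (23.4, 25.9), none of them called. C1qa, C1qb, C1qc, Mertk, Trem2 and Ms4a7, which are more specific to macrophages, each stayed under 0.4 CPM in both populations.

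Primary granule genes had the highest ratios of all, but in few cells. Of 7 measured members 6 were called higher, beside 1.69% of all compared genes. Elane, neutrophil elastase (chromosome 10, 79886247 to 79888215), was at 67.7 CPM (64.9 to 70.7) in MHTO4 and 0.276 CPM (0.101 to 0.602) in MHTO3. Ctsg, cathepsin G, was at 44.4 against 0.507 CPM, Mpo, myeloperoxidase, at 34.9 against 0.461, and Ms4a3, a membrane protein of granulocyte-monocyte progenitors, at 21.9 against 0.461. Prtn3, proteinase 3 (chromosome 10, 79874476 to 79883174, beside Elane), was at 160 CPM against 30.2, with a Prtn3 UMI in 28.1% of MHTO4 and 17.2% of MHTO3 cells.

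Just 5 of 3505 MHTO4 cells (0.143%, exact binomial interval 0.0463% to 0.333%) held 5236 of the 5316 counts of Elane, Mpo, Ctsg and Ms4a3 in that population, or 98.5%. Each had at least 20 UMIs of the 4 genes, a minimum set after the values were seen. No MHTO3 cell reached it (0 of 2853, which allows a share of up to 0.105% at 3 counts of the total), and no MHTO5 cell (0 of 3680, up to 0.0815%). The 5 cells were deep, with 33601 to 58475 UMIs and 4210 to 5854 genes, and their tag was clear, with 99.0% to 99.4% of named-tag counts on MHTO4. S100a8 and S100a9 made up 3.09% to 22.9% of their transcripts, and Prtn3 had 181 to 1102 UMIs in each. Each also held 32 to 65 UMIs of Tagln2. Camp, a later gene, had 0 to 4 UMIs in 4 of them and 683 in the fifth, which also held 748 UMIs of Ngp and 97 of Ltf. The share of 0.143% is of kept cells, and the 2% S100 minimum may have removed similar cells. Of the 126 tagged cells under it 3 (2.38%) held an Elane UMI, against 0.628% of kept MHTO4 cells, both unthinned. Whether any of the 126 reached 20 UMIs of the 4 genes was not tested.

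Without these 5 cells the picture of the primary granule genes changed. Elane, Mpo, Ctsg and Ms4a3 no longer reached the 20 CPM minimum. The list then had 3 measured members, 2 of them called higher. Elane was at 0.545 CPM against 0.276 in MHTO3, a ratio of 1.97 with an interval of 0.742 to 6.11 that includes 1. Mpo was at 0.481 against 0.461 CPM, and Ctsg at 0.321 against 0.507. Ms4a3 was at 1.22 against 0.461 CPM, a ratio of 2.64 (1.29 to 5.95). Prtn3 was at 48.2 CPM against 30.2, a ratio of 1.597 (1.46 to 1.75), and stayed called at a log2 ratio of 0.60. Over all genes 43 were then higher and 100 lower, of which 42 and 99 were among the 58 and 102. The ribosomal protein gene Rpl3 dropped from 0.83 to 0.38, the folding genes Pdia6 from 0.76 to 0.45 and Manf from 0.75 to 0.16, and the nuclear transport gene Ran from 0.59 to 0.21. These 4 thus lost their call with the 5 cells. The highest log2 ratio left among the named genes was that of Apoe.

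The promoters of Elane and Prtn3, the neighbouring protease genes on chromosome 10, are shown for the same window. Capitals mark GAGGAA, the core known for PU.1 and other Ets factors, and both strands were searched.
Elane (chromosome 10, 79886162 to 79886311, plus strand): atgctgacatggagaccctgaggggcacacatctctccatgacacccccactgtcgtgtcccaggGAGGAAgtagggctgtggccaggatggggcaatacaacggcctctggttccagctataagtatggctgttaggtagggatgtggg
Prtn3 (chromosome 10, 79879517 to 79879666, plus strand): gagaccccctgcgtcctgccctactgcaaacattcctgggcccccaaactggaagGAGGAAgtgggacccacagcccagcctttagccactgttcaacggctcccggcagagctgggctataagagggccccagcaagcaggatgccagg
Both held GAGGAA at 1 place, as did 14.5% of the 32851 promoters. The promoters of Mpo, Ctsg and Ms4a3 had no match in this window. The C/EBP motif TTGCNNAA, present in 5.46% of promoters, matched none of these 5.

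Secondary granule genes differed less. Of 15 measured members 2 were called higher (1 under TMM scaling) and 0 lower, beside 1.69% and 2.98% of all compared genes, and the median log2 ratio was 0.11. Camp, the cathelicidin precursor (chromosome 9, 109847379 to 109849617), was at 960 CPM (949 to 971) in MHTO4 and 499 CPM (490 to 509) in MHTO3, 1.92-fold higher (1.88 to 1.97). Ltf, lactoferrin, was at 1253 CPM against 818, near the threshold at 0.61 and at 0.54 under TMM scaling. Ngp was at 3916 CPM against 2866 (0.45) and was not called. Camp counts were concentrated in both populations: the top 1% of cells held 61.9% of them in MHTO4 and 71.9% in MHTO3, while a thinned Camp UMI was present in 10.2% and 7.74% of cells. The unthinned share was 3.17% in the mixed set under the S100 minimum. Gelatinase granule and late maturation genes were level, with 1 of 14 called higher (Cd101, 29.8 CPM against 18.2, and 0.53 under TMM scaling) and a median of -0.02. Of the cell cycle list 7 members were measured, all above 0 (53.0% of all compared genes were), 1 of them called higher (Ran, 54.2 CPM against 34.4), with a median of 0.23. Without the 5 cells 0 of 6 measured members were called, and the median was 0.14. Mki67, a marker of dividing cells, was below the minimum at 1.84 and 0.645 CPM.

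Stefin and cystatin genes, which encode inhibitors of cysteine proteases, were higher. All 8 measured members lay above 0, as did 53.0% of all compared genes, and the median was 0.41. Of the 8, 3 were called higher, beside 1.69% of all genes, and 2 under TMM scaling, where Stfa2 was at 0.56. Cstdc5 was at 2066 CPM against 1242, Stfa3 at 441 against 255.1 and Stfa2 at 884 against 570. Reads of these near-identical paralogs on chromosome 16 can be split between them, so the single-gene values are uncertain. In thinned cells a Cstdc5 UMI was found in 29.1% of MHTO4 and 23.6% of MHTO3 cells, and the top 1% of cells held 31.4% and 36.2% of its counts.

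Shifts under 1.5-fold ran through the housekeeping lists. All 34 measured cytosolic ribosomal protein genes lay above 0 (32 under TMM scaling), with a median of 0.22 and 1 called. Of 25 glycolysis and hypoxia genes 20 lay above 0 (15 under TMM scaling), beside the same 53.0%, 0 were called and the median was 0.14. Hexokinase Hk2 was at 49.8 CPM against 32.2 and Tpi1 at 203 against 136. Oxidative phosphorylation genes had a median of 0.10 and 0 of 26 called, while their summed level was lower in MHTO4, at 16476 CPM against 18159. The nuclear-encoded Atp5g1 was at 33.1 CPM against 20.7 while the mitochondrially encoded mt-Co1 was at 5394 against 6324. The list of G-CSF and STAT3 targets had 1 of 17 called higher, the survival gene Bcl2l1 at 44.0 CPM against 27.6 (0.59, and 0.52 under TMM scaling). The list had 2 called lower, Fos and Junb. Of all compared genes 1.69% were called higher and 2.98% lower. Csf3, which encodes G-CSF itself, had 0 counts in both populations.

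**Figure D3:**
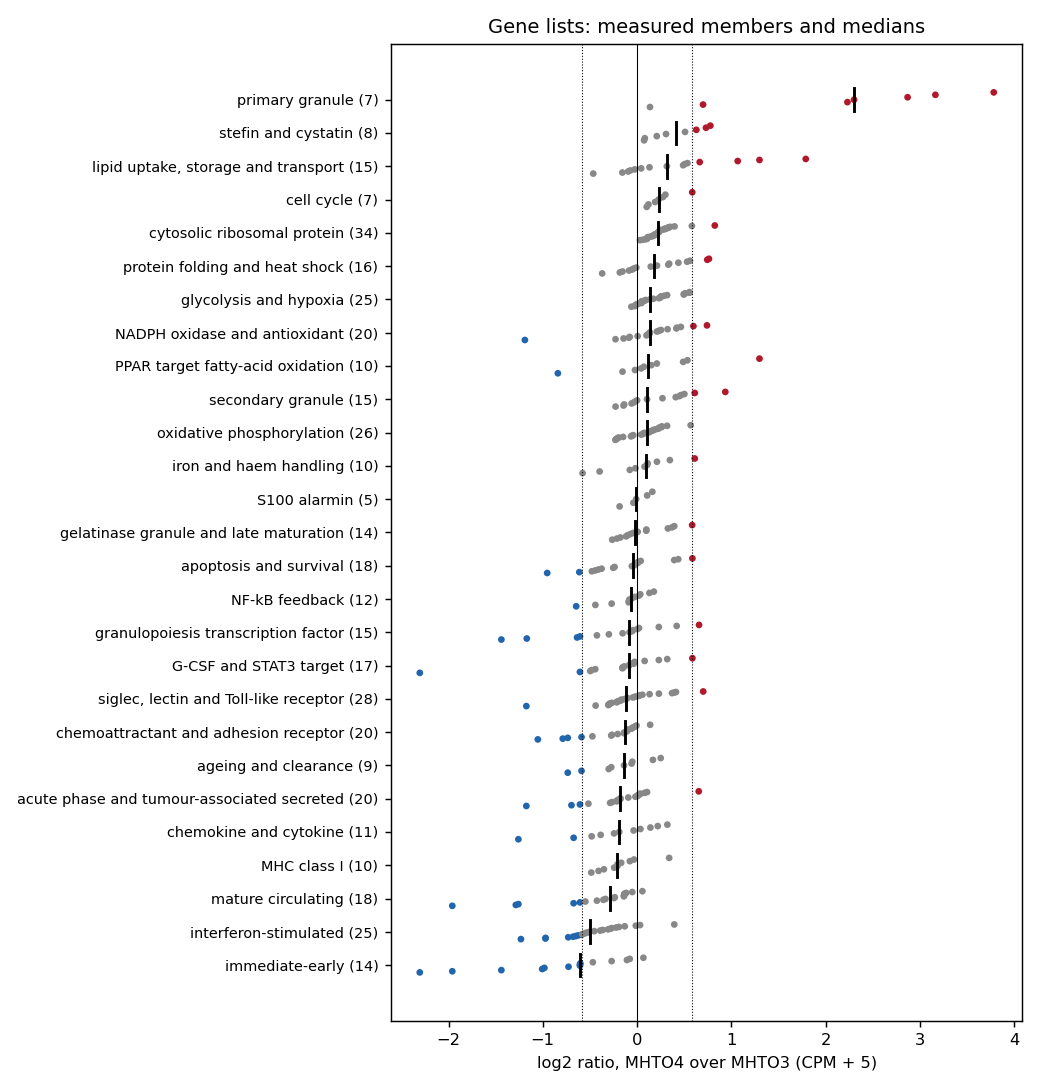
Each point is a measured member of a gene list (number measured in brackets) at its log2 ratio of MHTO4 over MHTO3, black bars are list medians, dotted lines mark 1.5-fold, and called genes are red (higher) or blue (lower). Primary granule genes reach farthest right through 5 cells, and immediate-early (median -0.61) and interferon-stimulated genes (-0.50) have the lowest medians.

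Marker lists of other cell types differed widely in their summed levels, and the highest sums rested on few members. Summed monocyte markers gave 500.2 CPM in MHTO4 and 476 in MHTO3, and macrophage markers 1504 and 1196, of which Apoe made up 373 and 104. Of the alveolar macrophage list, which summed to 2183 and 1952 CPM, 4 of 15 members were measured: the protease Ctsd at 1442 and 1166 CPM, Chil3 at 358 and 396, Fabp5 at 344 and 367, and Siglecf, the 1 called. Ear1, Marco, Krt79 and Plet1 were at 0 in both. The mammary tumour epithelium list summed to 9615 and 8931 CPM, of which Lcn2, also a neutrophil granule gene, made up 9612 and 8929, while Krt18, Krt5, Krt14 and Erbb2 were at 0 in both. B cell markers summed to 14.4 and 9.26 CPM, T and NK cell markers to 7.73 and 1.34, dendritic cell markers to 11.9 and 14.6, endothelial markers to 8.94 and 6.54 and lung epithelial markers to 91.0 and 105. Erythroid and platelet markers each stayed under 1 CPM. Of the eosinophil list Siglecf was the only member measured, and Epx and Prg2 were at 0 in both. Of the basophil and mast cell list only Hdc, a histamine-forming enzyme also made by neutrophils, was measured, at 399.9 CPM against 809. The part of other cells in the Apoe, Siglecf and Hdc values was not tested beyond these marker levels.

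The library's remaining population, MHTO5 (3680 cells), gives the same genes a further level. Tagln2 was at 643 CPM, Vim at 2613, Ahnak at 52.9 and Adgre5 at 380 in MHTO5, near MHTO3 and far above MHTO4. Apoe was at 95.4 CPM, Acot1 at 9.34 and Apoc2 at 100.1, again near MHTO3. Other genes put MHTO5 apart from both: Il1b at 9607 CPM, Cd14 at 3948, Fos at 403, Dusp1 at 1295 and Cxcl2 at 4916, against 84.2 and 75.9 for Cxcl2 in MHTO4 and MHTO3. For Klf2, at 761 CPM, and Gbp2, at 65.7 CPM, it lay between them. Camp was at 227 CPM, below both. Tagln2, Vim, Ahnak and Adgre5 were thus lower in MHTO4 than in either other population of its library, and Apoe, Acot1 and Apoc2 higher. This did not extend to the lipid list as a whole, which summed to 2157 CPM in MHTO4, 2069 in MHTO5 and 1588 in MHTO3, with Plin2 at 429 CPM in MHTO5.

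**Figure D4:**
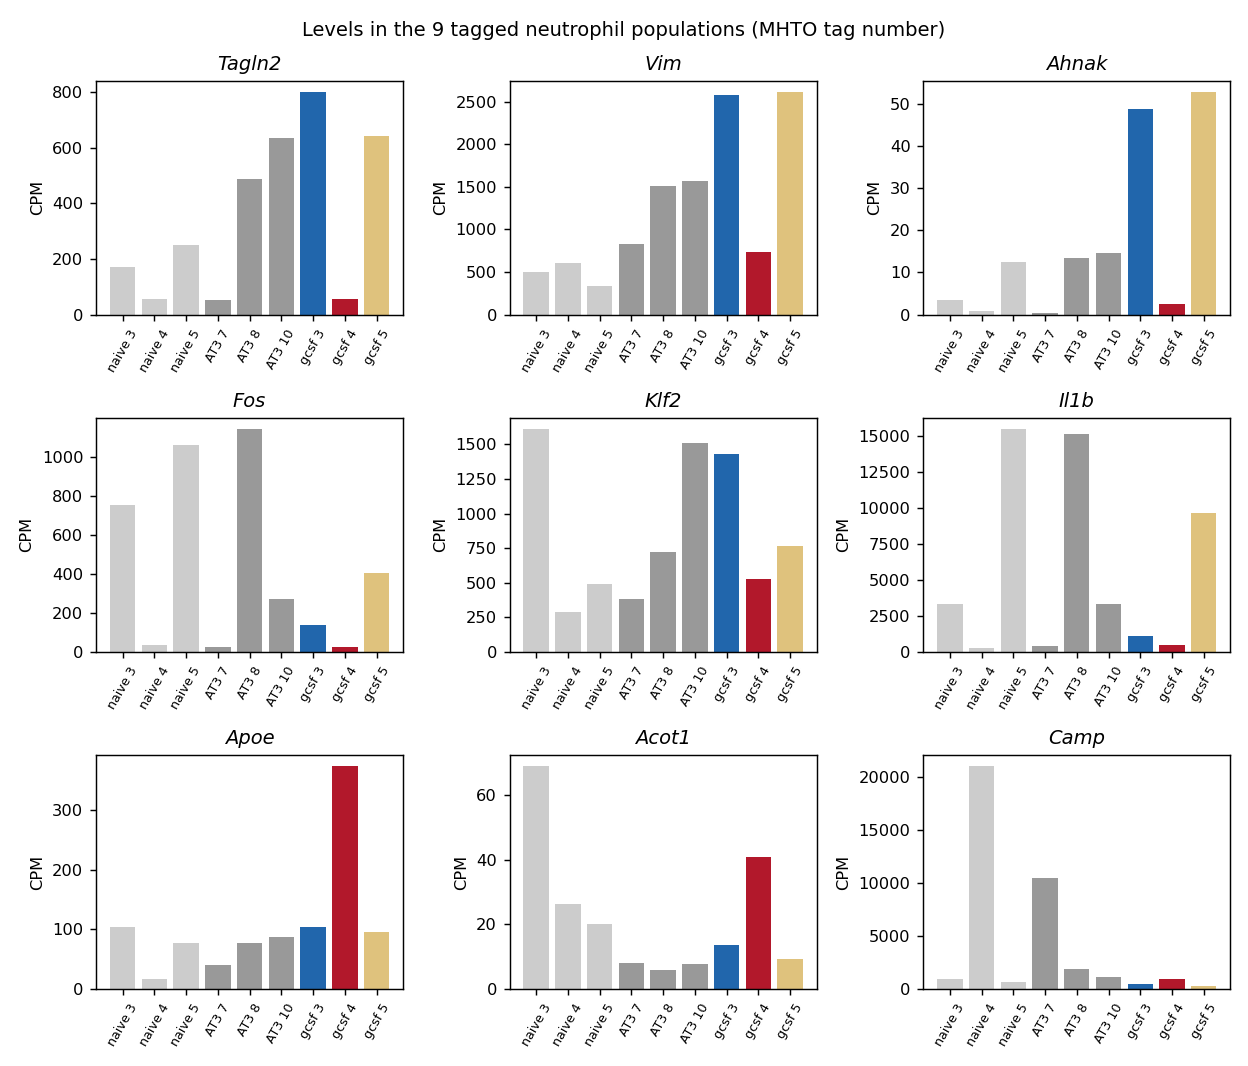
CPM of 9 genes (linear axes from 0, a separate scale for each) in the 9 tagged populations, labelled by library and tag number, with AT3-gcsf MHTO3 blue, MHTO4 red and MHTO5 sand. AT3-gcsf MHTO4 has the highest Apoe of the 9 at 373 CPM, and its Tagln2, at 56.0 CPM, is near that of naive MHTO4 and AT3 MHTO7.

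The same ratios were then taken in the other libraries, whose cells are separate. Naive MHTO4 and MHTO3 carry the same tag numbers, and AT3 MHTO7 and MHTO10 were chosen with earlier results known, which had shown MHTO7 to be the AT3 population richest in Camp. No source used here says whether a tag number or pair marks the same tissues across libraries. In the naive library 46.4% of 4405 compared genes were lower in MHTO4 than in MHTO3 and 8.81% higher, 55.2% in all. In the AT3 library 42.8% of 3767 compared genes were lower in MHTO7 than in MHTO10 and 6.93% higher, 49.7% in all. Calls there were thus far more frequent than the 2.98% and 1.69% in AT3-gcsf. Over the 3425 genes compared here the median log2 ratio was -0.52 in the naive pair and -0.43 in the AT3 pair. S100a8 and S100a9 together held 37.3% of counts in naive MHTO4 and 16.2% in naive MHTO3. They held 39.5% and 25.5% in AT3 MHTO7 and MHTO10, and 29.7% and 29.0% in AT3-gcsf MHTO4 and MHTO3. A larger share of these genes lowers the CPM of all others, and its part in the calls was not tested.

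Of the 102 genes lower in AT3-gcsf MHTO4, 85 (83.3%) were at least 1.5-fold lower in naive MHTO4, beside 45.2% of the 3425 genes compared here. In AT3 MHTO7 95 of the 102 (93.1%) were lower, beside 38.3%. Of the 58 higher genes, 18 (31.0%) were at least 1.5-fold higher in naive MHTO4, beside 6.98% of all 3425, and 17 (29.3%) lower, beside 45.2%. In AT3 MHTO7 16 (27.6%) were higher, beside 6.07%, and 9 (15.5%) lower, beside 38.3%. All 14 measured immediate-early genes were at least 1.5-fold lower in both other pairs, with no minimum level set there, beside the same 45.2% and 38.3% of all genes. Over the 3425 genes the log2 ratios of AT3-gcsf correlated with a Pearson r of 0.363 with the naive ones and 0.510 with the AT3 ones (Spearman 0.334 and 0.507), a description across genes, which share their function and their counting in all libraries.

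The leading genes were split by this view. Tagln2 was at 54.9 CPM in naive MHTO4 against 170 in naive MHTO3, and at 52.2 in AT3 MHTO7 against 634 in AT3 MHTO10, so its low level recurred in each pair. Fos was at 35.9 against 753 CPM and 22.7 against 270 CPM. Vim was at 604 CPM in naive MHTO4 and 498 in naive MHTO3, which is the opposite order, and at 829 against 1573 in the AT3 pair. Mmp19 stayed under 1 CPM in both naive populations, and was at 0.333 against 3.99 CPM in the AT3 pair.

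Among the higher genes named here the order varied between the pairs. Above 0 lay 28 of the 58 higher genes in the naive pair and 37 in the AT3 pair, beside 19.2% and 21.3% of all compared genes. Apoe was lower in naive MHTO4 (15.6 CPM against 104) and in AT3 MHTO7 (39.1 against 86.1), the reverse of its order in AT3-gcsf. Siglecf was likewise lower, at 2.96 against 18.2 CPM and 6.70 against 25.5. Acot1 was at 26.4 against 68.9 CPM in the naive pair and 8.13 against 7.58 in the AT3 pair. Camp had the same order with far wider gaps, at 21046 against 886 CPM and 10518 against 1156. In the AT3 pair that order was set by the choice of MHTO7, known to be richest in Camp, and is no recurrence. Elane was at 42.7 CPM in naive MHTO4 against 1.17 in naive MHTO3, and at 1.33 against 2.59 in the AT3 pair.

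**Figure D5:**
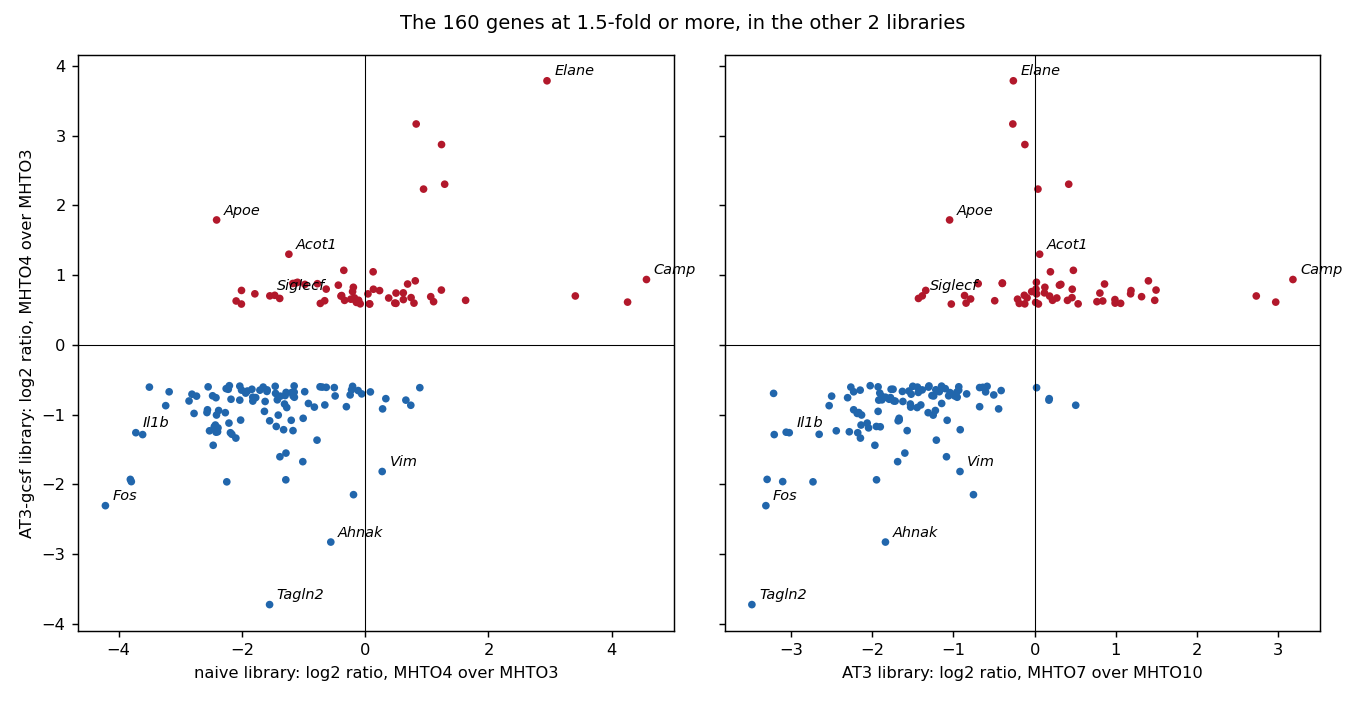
Log2 ratio of the 160 called genes in AT3-gcsf (vertical, MHTO4 over MHTO3) against naive MHTO4 over MHTO3 (left) and AT3 MHTO7 over MHTO10 (right), with higher genes red and lower genes blue. Most lower genes fall left of 0 in both plots (95 of 102 and 98 of 102), beside 80.8% and 78.7% of all 3425 compared genes. Higher genes lie on both sides, Apoe left and Camp far right. Right of 0 lie 28 and 37 of the 58 higher genes, beside 19.2% and 21.3% of all compared genes. The place of Camp in the right plot was set by the choice of MHTO7, known to be richest in Camp.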

How the data were processed

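The deposited gene expression files held raw UMI counts per gene and called barcode. The submitters' processing notes list bcl2fastq 2.20.0.422 and Cell Ranger 4.0.0, and the file headers name that Cell Ranger version. The genome build is mm10. The deposited hashtag files held raw counts per tag and barcode, and the sources used here do not name the program behind them or say whether UMIs were collapsed. Hashtag and expression files were joined by barcode: 94.1% of AT3-gcsf barcodes got a tag in the joined file and at most 0.672% in any other. Counts were summed per tag and scaled to CPM (Python 3.11.15, numpy 2.4.6, scipy 1.17.1). CPM carry exact Poisson, ratios conditional binomial and shares Clopper-Pearson intervals, all 95% and for counting error only. edgeR 4.0.16 (R 4.3.3) gave only the TMM factors. Gene positions are those of GENCODE vM21.

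Members, 27 pathway lists and 17 cell type lists were chosen with earlier results of these data known. Named genes were the 15 highest and 15 lowest called genes, the 3 largest differences of each list, the 20 most abundant genes and fixed reference genes. The summing and calling steps were tested on simulated data. Alternatives covered scaling, tag and cell rules, minimum level, added CPM and fold.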

Additional observations from a re-analysis of the deposited data

How the results depend on the processing

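No paired analysis was possible because each tag is 1 population of 1 library and the labels give no replicate numbers. Under 19 alternatives the count of lower genes stayed within 1.5 times of 102, except at 2-fold (35) and at the lowest fold threshold tried (304). The count of higher genes, 58, was 90 with totals without S100a8 and S100a9, 140 with totals without the 20 most abundant genes, 97 with equal weight per cell, 114 in thinned cells, 32 in cells with S100a8 and S100a9 at 10% or more, 113 and 31 with a minimum of 5 and 50 CPM, 90 and 27 with 1 and 20 CPM added, 9 at 2-fold and 297 at the lowest threshold. Of 64 called genes named by rule, 37 kept 1.5-fold under all 17 alternatives that give gene values and 27 lost it in at least 1. The reversed log2 ratios were Ctsg -0.039, Mpo -0.029 and Manf -0.070 without the cells above the 95th percentile of UMIs, and Ctsg -0.050 without the 5 cells rich in primary granule transcripts, an alternative chosen after seeing the data. The cause of the other changes was not tested. With 1 population per tag, the spread between animals cannot be estimated, and intervals cover counting error only.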

Other observations

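Some groups outside the comparisons above held single genes past 1.5-fold. Of 15 measured transcription factors of granulopoiesis 4 were called lower and 1 higher, beside 2.98% and 1.69% of all compared genes. Foxp1, a forkhead repressor, was at 32.1 CPM in MHTO4 and 78.4 in MHTO3, and Bhlhe40, a basic helix-loop-helix repressor, at 22.01 and 12.1. Foxp1 was also lower in naive MHTO4 than MHTO3 (34.5 against 102 CPM) and in AT3 MHTO7 than MHTO10 (19.4 against 89.4 CPM). Of 18 apoptosis and survival genes 2 were lower and 1, Bcl2l1 (44.0 CPM against 27.6), higher, beside the same shares. The lower ones were the inflammatory caspases, with Casp4 at 99.4 CPM against 197 and Casp1 at 53.3 against 84.2. Of 20 NADPH oxidase and antioxidant genes 2 were higher and 1 lower, again beside the same shares. The higher ones were the peroxiredoxin Prdx1 (56.8 against 31.9 CPM) and the oxidase subunit Ncf1 (268 against 176). The lower one was the cystine transporter Slc7a11 (6.14 against 20.4). Slc7a11 was at 391 CPM in MHTO5. The mitochondrial carrier Ucp2 was at 436 CPM against 784.

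Some secreted-protein genes that were far lower in the naive library were level between MHTO4 and MHTO3. Wfdc17 was at 24837 and 26484 CPM (91.9 and 1326 in the same tags of the naive library), Prok2 at 1511 and 1481 (32.1 and 25.3) and Igfbp6 at 668 and 665 (1.79 and 34.2). Of 20 measured acute-phase and tumour-associated genes 3 were called lower, Saa3, Cd14 and Cd84 (the last named after its value was seen), and 1 was called higher. Of all compared genes 2.98% were called lower and 1.69% higher. Below 0 lay 13 of the 20, beside 1609 of all 3425 compared genes, and the median log2 ratio was -0.18. The higher one was Nos2, the inducible nitric oxide synthase, at 52.9 CPM against 31.7, with a Nos2 UMI in 7.93% of thinned MHTO4 and 5.17% of thinned MHTO3 cells.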
